A study of Mus musculus with 12 samples.

Results

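The transcriptome of vehicle-treated osteocytes was compared with that of the vehicle-treated mesenchymal stem cells (MSCs) from which they were differentiated. The 6 libraries of this comparison, 3 per group, were chosen by their labels from the 12 libraries of the series, and the remaining 6 are the same 2 cell states treated with the HIF prolyl hydroxylase inhibitor FG-4592 (Roxadustat) at 50 µM for 48 h. All libraries came from MPC2 (murine progenitor cells, clone 2), a conditionally immortalized mesenchymal stem cell line of the mouse, so the whole series represents 1 clone. The MSC group was kept at 33 °C in growth medium, and the osteocyte group was moved to 37 °C and held for 3 weeks in the same medium with beta-glycerophosphate and ascorbic acid. Both groups received the vehicle, DMSO, for 48 h before mRNA was enriched and sequenced. Differentiation, temperature, medium and time in culture changed together and cannot be told apart in this comparison. Nothing in the labels states that the 3 libraries of a group came from separate cultures, so the p-values measure the spread between these libraries, which may be technical.

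Osteogenic differentiation takes a mesenchymal progenitor through a matrix-producing osteoblast to an osteocyte, the cell that becomes buried in the mineral it helped to form. Runx2 and Sp7 (osterix) are the master transcription factors of the osteoblast, type I collagen, osteocalcin and alkaline phosphatase mark matrix production and mineralization, and Dmp1, Phex, Mepe and Sost mark the passage to the osteocyte. The same progenitors can become adipocytes under the regulator Pparg or chondrocytes under Sox9, so markers of those fates were read beside the bone genes.

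Total counts of the 6 libraries lay between 52829185 and 65075044, so that 3 counts, the most that finding none still permits, came to 0.0452 to 0.0545 CPM (counts scaled to the size of the library). This limit covers counting error only. The median standard deviation of log2 CPM between libraries of a group was 0.147 in vehicle osteocytes and 0.109 in vehicle MSCs. The 10 most abundant genes took 6.96% to 7.44% of the counts in osteocyte libraries and 6.44% to 6.57% in MSC libraries. Genes of the mitochondrial genome took 3.3% to 3.74% in osteocyte libraries and 2.56% to 2.83% in MSC libraries, ranges that did not overlap, and the part of this share in the results was not tested. Cdh5 and Kdr (endothelium), Myod1 and Myog (muscle) and Epcam (epithelium) had at most 3 counts in every library of both groups. Other markers of these types were called higher at low levels, namely the endothelial Tek, from 7, 5 and 11 counts in MSCs to 107, 55 and 35 in osteocytes, and Pecam1, from 1, 10 and 5 to 20, 21 and 15 (no longer called without MSC library 1 or 3 or osteocyte library 1 or 2), and the epithelial Cdh1, from 1, 3 and 0 to 31, 49 and 9. Ptprc (the pan-leukocyte CD45) had 1, 0 and 0 counts in MSCs and 2, 6 and 0 in osteocytes, and the summed level of the 12 blood and immune markers was 10.3 to 10.6 CPM in MSCs and 17.9 to 20.4 CPM in osteocytes, with 7 of the 12 at or under 3 counts in each group. The summed level of 8 osteoclast markers was 78.4 to 85.5 CPM in MSCs and 116 to 124 CPM in osteocytes, and Calcr, Dcstamp and Ocstamp had at most 3 counts in every library. In MSCs 6 of the 8 were at or under 3 counts. Most of the sum in both groups was that of Itgb3, which was not called. Of these lists Acp5, from 0, 0 and 0 to 95, 77 and 158 counts, Mmp9, from 4, 9 and 21 to 482, 380 and 398, and the myeloid Lyz2 (1.3) were called higher, and Csf1r (-1.9) was called lower. The part of these markers in the results was not tested.

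Of 56350 annotated genes, 16484 exceeded 10 counts in at least 3 of the 12 libraries and were tested. With edgeR's quasi-likelihood test and both cutoffs applied (an adjusted p under 0.05 and a log2 fold change beyond 1 in either direction), 1620 genes rose in osteocytes and 1003 fell, which is 9.83% and 6.08% of the genes tested. Of all the genes tested, 56.9% had no overlap between the 3 osteocyte and the 3 MSC libraries, and of the called genes 96.5% had none. The rises were larger than the falls. The median log2 fold change was 2.36 among called rises and -1.60 among called falls, and 611 genes rose more than 8-fold while 185 fell by as much. Among protein-coding genes 1329 of 12943 rose and 725 fell, whereas among lncRNAs 171 rose and 170 fell of 1587. For 267 of the called rises no MSC library had more than 3 counts, and 34 of these averaged at least 100 counts in osteocytes. The reverse, no more than 3 counts in any osteocyte library, was true of 99 called falls, of which 4 averaged at least 100 counts in MSCs.

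**Figure D1:**
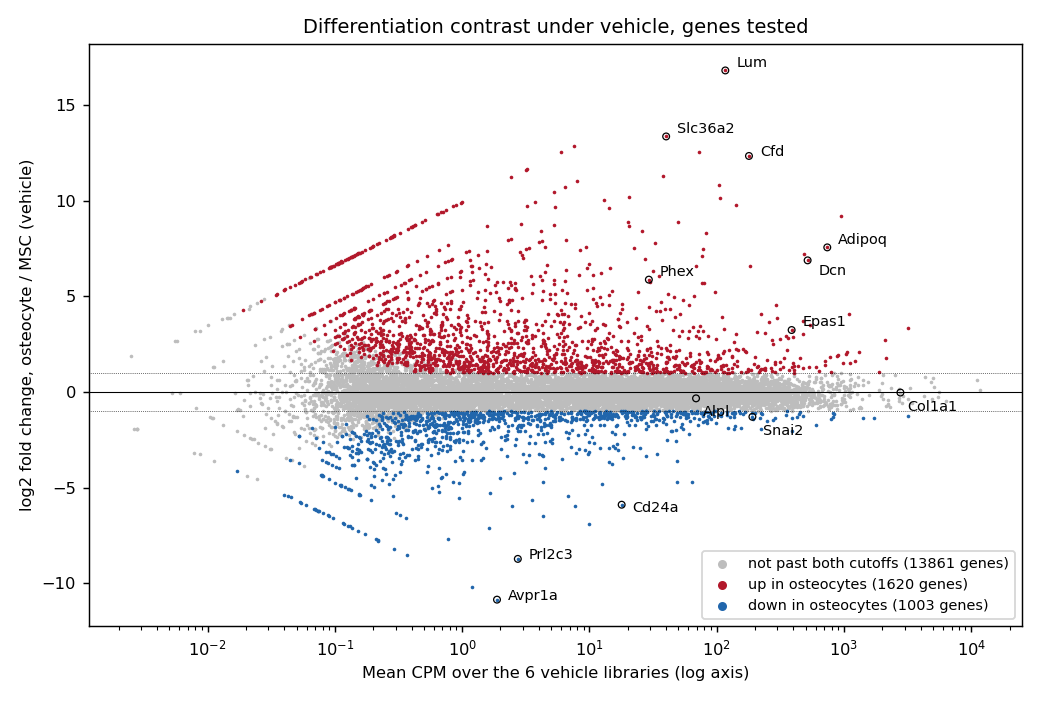
Each point is 1 of the genes tested, with its mean CPM over the 6 vehicle libraries on the log horizontal axis and its log2 fold change (osteocyte over MSC) on the vertical axis; red and blue points passed both cutoffs and dotted lines mark a log2 fold change of 1 either way. Rises reach further from 0 than falls, Lum is the highest labelled point at 16.81, Avpr1a the lowest at -10.85, and Col1a1 lies close to 0. The slanted rows of points at the left are genes with 0 counts in 1 group, whose fitted fold changes depend on the fitting and are not measured sizes.

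The highest fitted fold change belonged to Lum (ENSMUSG00000036446.5, chr10:97565128-97572703 on mm10), which encodes lumican, a small leucine-rich proteoglycan of the collagen matrix. Lum had 0, 0 and 0 counts in the MSC libraries and 19796, 10795 and 12835 in the osteocyte libraries, at least 4619-fold higher when set against 3 counts per MSC library. No MSC library held a read of it, and all 3 osteocyte libraries were far above the limit. Among the 10 largest rises by fitted fold change, restricted to a mean of at least 100 counts in the higher group and to genes without overlap, Adig (adipogenin, an adipocyte membrane protein) was at least 300.3-fold higher, Sftpa1 (surfactant protein A) at least 128-fold, Mfng (a Notch-modifying glycosyltransferase) at least 125-fold and Trf (transferrin) at least 96.3-fold, each with 0 counts in every MSC library. Slc36a2, a proton-coupled amino acid transporter, had 1, 0 and 0 counts in MSCs and 4545, 4557 and 5529 in osteocytes, a ratio of 14235-fold (95% counting interval 2555 to 562310). Adcyap1r1, the receptor of the neuropeptide PACAP, had 0, 4 and 0 counts in MSCs and 8079, 8310 and 10188 in osteocytes. Cfd (adipsin, complement factor D, secreted by adipocytes) had 1, 11 and 0 and 18334, 22002 and 24811 counts. Thrsp, a regulator of fatty acid synthesis, had 0, 0 and 5 and 4088, 4393 and 5313 counts. For these last 3 genes the few MSC counts decided the fitted fold change, which was 12.54 for Adcyap1r1 and 16.15 without MSC library 2, 12.34 for Cfd and 15.09 without MSC library 2, and 11.3 for Thrsp and 15.19 without MSC library 3. Adig, Cfd and Thrsp are genes of the adipocyte, whose other markers are described further on.

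The lowest fitted fold change was that of Avpr1a (ENSMUSG00000020123.6, chr10:122448499-122453452), a vasopressin receptor, with 220, 232 and 216 counts in MSCs and 0, 0 and 0 in osteocytes, at least 76.2-fold lower. Also among the 10 largest falls were 3 prolactin-like growth factor genes of the proliferin family. Prl2c5 went from 112, 96 and 221 counts to 0, 0 and 0, at least 48.1-fold lower. Prl2c3 went from 322, 358 and 290 to 0, 2 and 0, a ratio of 498-fold (95% counting interval 138 to 4122). Prl2c2 went from 1163, 1358 and 980 to 0, 7 and 23. These genes are near-identical copies, and how reads were divided among them by the counting is uncertain. The fitted fold change of Prl2c2 was -6.9 with all libraries and -6.22 without osteocyte library 1 and -8.34 without osteocyte library 3. Il1f10, an interleukin 1 family cytokine, went from 549, 512 and 438 counts to 13, 0 and 4, and Sema3f, a secreted semaphorin, from 230, 264 and 373 to 9, 5 and 0. Cd24a, a glycosylphosphatidylinositol-anchored surface glycoprotein used as a progenitor marker, was at 36.8, 32.3 and 36.6 CPM in MSCs and 0.633, 0.485 and 0.651 CPM in osteocytes (log2 fold change -5.89 ± 0.17 (SE), adjusted p = 9.26e-14). H2-M1, a non-classical MHC class I gene, had a log2 fold change of -5.97, from a mean of 15.2 to 0.245 CPM. The remaining members of the 10 largest falls were Gm816, from 166, 226 and 185 to 3, 1 and 0 counts, and Arxes1, an adipocyte-related gene of the X chromosome, from 344, 425 and 467 to 8, 3 and 14 counts. In each of the 10 genes every MSC library lay above every osteocyte library, as the choice of these genes required.

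Runx2 and Sp7, the master factors of the osteoblast, were already present in MSCs. None of the 19 tested factors rose past both cutoffs and 5 fell, with a median log2 fold change of -0.48 against -0.01 over all genes tested. Runx2 was at 128, 128 and 129 CPM in MSCs and 197, 191 and 181 CPM in osteocytes (log2 fold change 0.56 ± 0.04 (SE), adjusted p = 1.94e-08). Sp7 was at 67.7, 66.5 and 65.3 CPM and 87.3, 94.4 and 89.96 CPM (0.45 ± 0.05 (SE), adjusted p = 3.18e-06). Both factors were higher in all 3 osteocyte libraries but by less than the cutoff of 1. Dlx5, a homeobox factor upstream of Sp7, overlapped between the groups at 0.05. The members that fell were Snai2, a mesenchymal zinc finger repressor, Lef1, a nuclear partner of beta-catenin, Twist2, a basic helix-loop-helix repressor of osteoblast maturation, Msx2 and Id4. Snai2 was at 275, 267 and 270.4 CPM in MSCs and 109.5, 106 and 116 CPM in osteocytes (log2 fold change -1.29 ± 0.06 (SE), adjusted p = 6.11e-11). Msx2 and Id4 were low genes. Msx2, a homeobox factor, went from 50, 72 and 116 counts to 0, 9 and 1, and Id4, an inhibitor of helix-loop-helix factors, from 72, 70 and 79 counts to 1, 6 and 0. Lef1 (-1.01) lay close to the cutoff and gave -0.97 without MSC library 1, -0.97 without MSC library 3, -0.93 without osteocyte library 2 and -0.96 without osteocyte library 3, and Twist2 (-1.07) gave -0.71 without MSC library 3 and -0.996 without osteocyte library 3.

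Bone matrix and mineralization genes split. Of 18 tested members 8 rose and 1 fell (44.4% and 5.56%, against 9.83% and 6.08% of all genes tested). The median log2 fold change was 0.76. In 16 the groups had no overlap, as was true of 56.9% of all genes tested. Bglap, which encodes osteocalcin, was at 0.145, 0.301 and 0.251 CPM in MSCs and 3.25, 5.07 and 5.4 CPM in osteocytes (log2 fold change 4.28 ± 0.32 (SE), adjusted p = 1.43e-08). Its paralog Bglap2 rose as well, by 2.5, and reads of these near-identical copies may have been divided between them. Mgp, matrix Gla protein, an inhibitor of calcification, was at 68.6, 81.3 and 53.4 CPM in MSCs and 762, 882 and 1014 CPM in osteocytes (3.71 ± 0.15 (SE), adjusted p = 7.61e-12). Other rises were those of Enpp1 (2.19), which makes the mineralization inhibitor pyrophosphate, Ahsg (5.6), fetuin-A, a mineral-binding protein, Postn (3.77), periostin, a matricellular protein of the periosteum, Smpd3 (1.33), a sphingomyelinase needed for mineralization, and Slc20a2 (1.3), a phosphate transporter. Alpl, the tissue-nonspecific alkaline phosphatase, was at 76.6, 69.4 and 83.7 CPM in MSCs and 57.3, 63.3 and 62.4 CPM in osteocytes (-0.33 ± 0.103 (SE), adjusted p = 0.014). Ibsp, bone sialoprotein, was at 64.2, 59.3 and 55.3 CPM and 37.2, 35.5 and 34.1 CPM (-0.74 ± 0.18 (SE), adjusted p = 0.00289). Both were lower in every osteocyte library, by less than the cutoff. Phospho1, the phosphatase that starts mineral formation inside matrix vesicles, fell, from 4.05, 3.77 and 4.7 CPM to 1.48, 1.28 and 2.36 CPM (-1.29 ± 0.19 (SE), adjusted p = 2.68e-05). Spp1, osteopontin, was at 3155, 3103 and 3211 CPM in MSCs and 6330.2, 4932 and 5266 CPM in osteocytes (0.804 ± 0.09 (SE)). Per kilobase of exon, Spp1 stood at 3343 CPM in osteocytes, Mgp at 746, Alpl at 15.1 and Bglap at 7.4, so on this scale osteopontin was the most abundant of these 4 mRNAs and osteocalcin was low even after its rise.

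Of 15 osteocyte markers 9 could be tested. Of these 4 rose and 1 fell (44.4% and 11.1%, against 9.83% and 6.08% of all genes tested). The summed level of the 15 was 4813 to 5046 CPM in MSCs and 4256 to 4856 CPM in osteocytes, ranges that overlapped. More abundant members set this sum, since Dmp1 and Phex were at most 13.7 and 63 CPM, so it does not follow those 2 genes. Dmp1, a matrix phosphoprotein of the early osteocyte, was at 0.89, 0.768 and 1.9 CPM in MSCs and 13.7, 10.8 and 9.12 CPM in osteocytes (log2 fold change 3.23 ± 0.36 (SE), adjusted p = 1.46e-06). Phex, the endopeptidase whose loss causes X-linked hypophosphatemia, was at 0.963, 0.868 and 1.1 CPM and 63, 50.6 and 59.2 CPM (5.88 ± 0.24 (SE), adjusted p = 6.72e-12). Every osteocyte library was above every MSC library for both genes. Fam20c (1.79 ± 0.07 (SE)), the Golgi kinase that phosphorylates secreted bone proteins, and Tnfrsf11b (3.36 ± 0.18 (SE)), osteoprotegerin, also rose. Capg, an actin-capping protein, fell (-1.07; -0.96 without osteocyte library 1, under the cutoff). Markers of the late osteocyte were at the limit of detection. Sost, the secreted WNT inhibitor sclerostin, had 0, 0 and 0 counts in MSCs and 0, 0 and 0 in osteocytes, and Mepe, a matrix phosphoglycoprotein, had 0, 2 and 0 and 0, 0 and 0. Pdpn, Reln, Ptprz1 and Dkk1 were also at or under 3 counts in every vehicle library. Fgf23, the phosphate-regulating hormone that the study is about, was 1 of the 9 tested members of this list. It had 0, 1 and 8 counts in MSCs and 5, 0 and 0 in osteocytes, a difference not detectable at this depth. In bulk RNA, fewer cells that express a gene and less RNA per cell cannot be told apart.

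**Figure D2:**
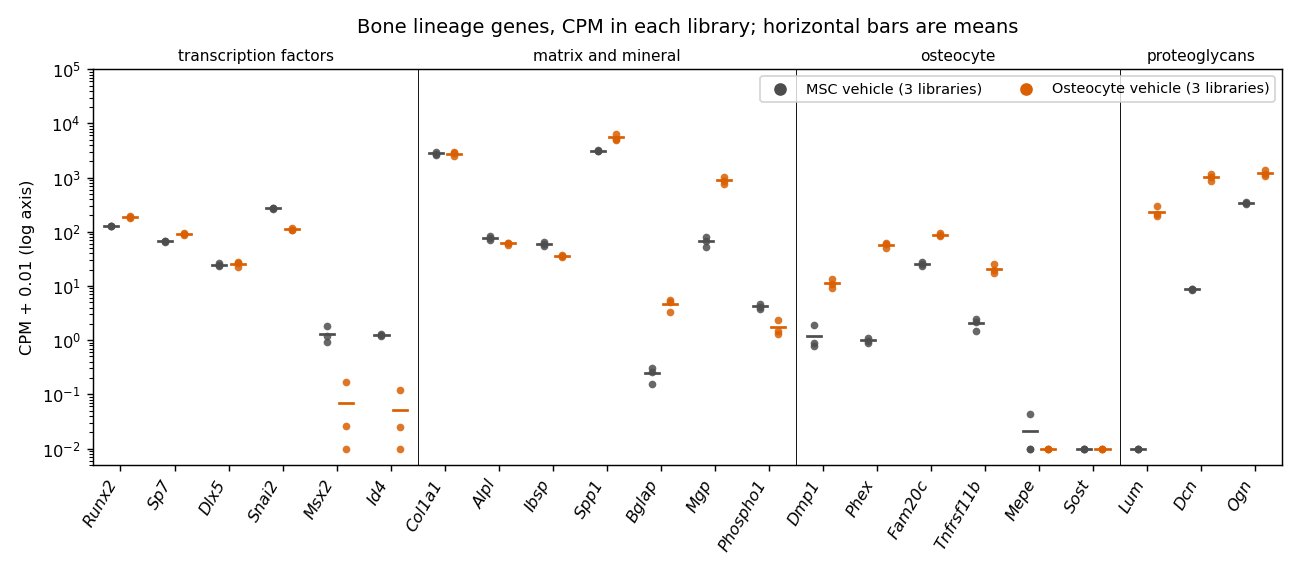
CPM plus 0.01 on a log axis for bone lineage genes in each of the 3 MSC (grey) and 3 osteocyte (orange) vehicle libraries, with the group mean as a bar. Runx2, Sp7 and Col1a1 differ between the groups by less than the cutoff, Phex, Dmp1, Dcn and Lum are separated by more than the spread between libraries, and Sost lies at 0 in all 6.

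Markers of the stromal progenitor did not fall together. Of 17 tested 7 rose and 2 fell. Ly6a (Sca-1), a surface antigen of mouse progenitors, was at 227, 225 and 195 CPM in MSCs and 52.5, 47.8 and 67.2 CPM in osteocytes (log2 fold change -1.95 ± 0.098 (SE), adjusted p = 8.66e-11). Ly6a fell in all 3 osteocyte libraries, whereas Vcam1, an adhesion molecule of marrow stroma, rose from 26.2, 24.5 and 24.5 CPM to 410.4, 406 and 433 CPM (4.06 ± 0.06 (SE), adjusted p = 5.71e-17). Nt5e (CD73, an ectonucleotidase, 5.34), Mcam (CD146, 4.33), Lepr (the leptin receptor of perivascular stroma, 3.71), Cd34 (2.81) and Grem1 (a secreted BMP antagonist, 5.72) rose, as did Cd200, a surface glycoprotein, from 2, 6 and 1 to 966, 617 and 821 counts. Cxcl12, the chemokine of marrow reticular cells, was among the most abundant mRNAs of both groups at 8897, 9094 and 8202 CPM in MSCs and 12483, 13841 and 13660 CPM in osteocytes (0.61 ± 0.05 (SE)). Thy1 (CD90) was at or under 3 counts in every vehicle library, and Alcam went from 13, 17 and 11 counts to 0, 0 and 0, at least 4.69-fold lower.

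Neither chain of type I collagen passed the test, while other collagens rose. Col1a1 was at 2665, 2706 and 3025 CPM in MSCs and 2938, 2460.4 and 2849.8 CPM in osteocytes (log2 fold change -0.03 ± 0.09 (SE), adjusted p = 0.84). Col1a2 was at 5519, 5440 and 5630 CPM and 5426, 5388 and 5860.4 CPM (0.01 ± 0.05 (SE), adjusted p = 0.924). In both genes the groups overlapped. Of 32 genes of fibrillar collagens and their processing 8 rose and 3 fell (25.0% and 9.38%, against 9.83% and 6.08% of all genes tested). The median was 0.08. Col3a1, the fibril collagen of loose connective tissue, rose from 405, 409 and 396 CPM to 1806, 1402 and 1884 CPM (2.07 ± 0.09 (SE), adjusted p = 1.96e-11), and Col11a1, a minor fibril chain, from 4.52, 3.98 and 2.78 CPM to 399, 323 and 357 CPM (6.59 ± 0.17 (SE), adjusted p = 2.45e-14). Among the enzymes, Plod2, the lysyl hydroxylase of collagen telopeptides, rose by 3.05, and the prolyl hydroxylase subunit P4ha3 by 2.66, while P4ha2 (-1.25), the lysyl oxidase-like gene Loxl2 (-1.4) and the procollagen peptidase enhancer Pcolce2 (-1.46) fell. Serpinh1, the collagen chaperone HSP47, had a log2 fold change of 0.76.

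The small leucine-rich proteoglycans, which bind collagen fibrils and growth factors, were mostly higher. Of 11 tested members 9 rose and none fell, with a median log2 fold change of 2.32. Dcn, decorin, was at 8.85, 8.35 and 8.88 CPM in MSCs and 1165, 873 and 1043 CPM in osteocytes (6.88 ± 0.097 (SE), adjusted p = 5.71e-17). Ogn, osteoglycin, was at 351, 329 and 334 CPM and 1382, 1075 and 1183 CPM (1.85 ± 0.09 (SE), adjusted p = 7.13e-11), and Omd, osteomodulin, at 19.7, 18.4 and 16.2 CPM and 149, 102 and 132 CPM (2.82 ± 0.13 (SE), adjusted p = 4.01e-11). Both groups of libraries were separate in these genes. Fmod, fibromodulin, passed the test but overlapped, with 0.926, 0.551 and 1.52 CPM in MSCs and 12.1, 1.11 and 1.81 CPM in osteocytes, and its fold change of 2.32 went to 2.06 without MSC library 2 and 0.58 without osteocyte library 1, neither of which passed the test. Matrix proteases and their inhibitors gave 10 rises and 1 fall among 23 tested (43.5% and 4.35%, against 9.83% and 6.08% of all genes tested). Mmp13, the collagenase of remodelling bone, was at 2.82, 2.27 and 1.92 CPM in MSCs and 92.6, 68.1 and 79 CPM in osteocytes (5.1 ± 0.13 (SE), adjusted p = 2.76e-14). Mmp2 (1.07), a gelatinase, rose, and Mmp14 (0.29), a membrane collagenase, and Timp3 (0.55), an inhibitor of metalloproteases, stayed under the cutoff. Adamts15, an aggrecanase-type protease, went from 0, 1 and 0 counts to 22, 17 and 27, a ratio of 64.2-fold (95% counting interval 11.1 to 2574). Htra3, a serine protease, was the member that fell (-1.5).

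Some cartilage genes rose without the defining proteoglycan of cartilage. Of 20 chondrocyte markers 12 were tested, and 6 rose and 1 fell (50.0% and 8.33%, against 9.83% and 6.08% of all genes tested). The summed level of the 20 was 119.5 to 126 CPM in MSCs and 151 to 169 CPM in osteocytes. Col2a1, the type II collagen of cartilage, was at 0.563, 0.618 and 1.13 CPM in MSCs and 52.6, 72 and 63.6 CPM in osteocytes (log2 fold change 6.32 ± 0.19 (SE), adjusted p = 2.14e-13). Comp, cartilage oligomeric matrix protein, rose by 2.74. Acan, aggrecan, had 0, 1 and 0 counts in MSCs and 0, 0 and 0 in osteocytes, Sox9, the chondrocyte regulator, had a log2 fold change of -0.704, and Col10a1, the collagen of hypertrophic chondrocytes, fell (-1.54).

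Adipocyte markers had the highest median fold change of the 32 gene lists examined. Of 20 adipocyte markers 18 were tested, 15 rose and none fell, with a median log2 fold change of 5.24, and their summed level went from 1926 to 1947 CPM in MSC libraries to 8385 to 9695 CPM in osteocyte libraries. Adipoq, the adipocyte hormone adiponectin, was at 7.45, 7.55 and 8.31 CPM in MSCs and 1193, 1487 and 1730.4 CPM in osteocytes (log2 fold change 7.56 ± 0.13 (SE), adjusted p = 4.34e-16). Plin1, perilipin, which coats the fat droplet, was at 0.472, 0.234 and 0.267 CPM and 244, 318 and 288 CPM (9.78 ± 0.15 (SE), adjusted p = 1.08e-16). No MSC library came near any osteocyte library in either gene. Fabp4, the fatty acid carrier of adipocytes, was at 3.98, 3.11 and 3.87 CPM and 95.2, 102 and 115 CPM (4.84 ± 0.16 (SE), adjusted p = 3.82e-13). Lpl, lipoprotein lipase, which the MSCs already carried, was at 596, 589.6 and 592 CPM and 1716, 1894 and 1909.7 CPM (1.64 ± 0.05 (SE), adjusted p = 4.42e-13). Pck1, which feeds glycerol synthesis, went from 0, 1 and 0 to 811, 717 and 844 counts, a ratio of 2308-fold (95% counting interval 414 to 91194), and Retn, the adipocyte hormone resistin, from 0, 0 and 1 to 539, 680 and 698, a ratio of 1865-fold (95% counting interval 334 to 73708). Hormone-sensitive lipase Lipe (5.7), the desaturase Scd1 (2.7), the acyltransferase Dgat2 (3.57), the scavenger receptor Cd36 (6.28) and the beta-3 adrenergic receptor Adrb3 (5.64, and 6.7 without MSC library 2) rose too. Pparg, the regulator of adipogenesis, was at 73.2, 78.1 and 70.4 CPM in MSCs and 117, 121 and 129 CPM in osteocytes (0.73 ± 0.05 (SE)), higher in all 3 libraries but under the cutoff. Lep, leptin, and Cidea, a droplet protein of brown fat, were at or under 3 counts in every vehicle library. The part of these markers in the other changes between the groups was not tested.

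**Figure D3:**
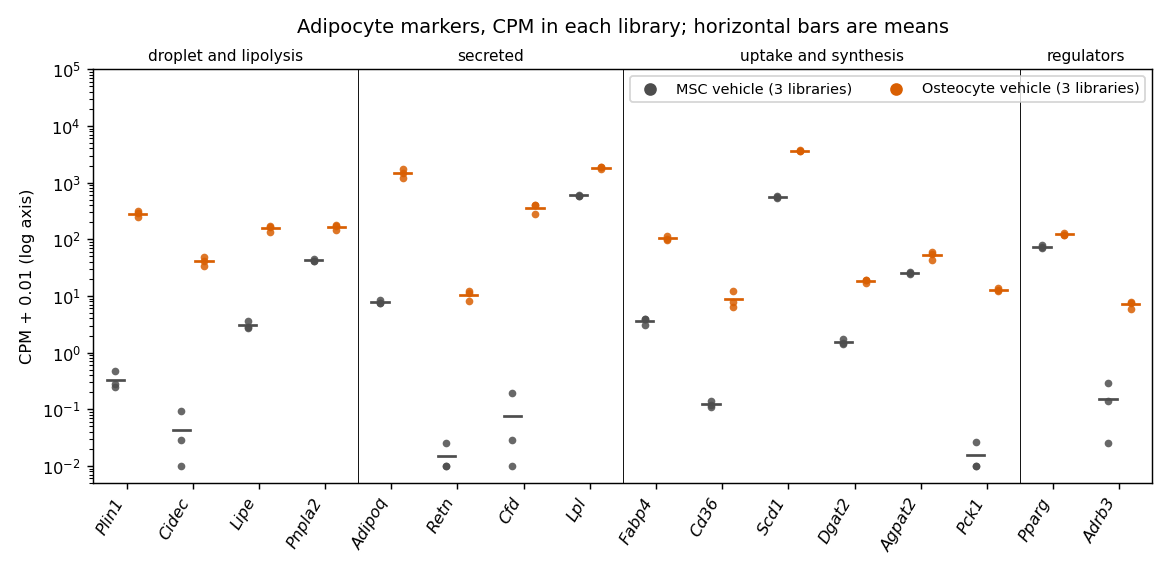
CPM plus 0.01 on a log axis for adipocyte markers in each of the 3 MSC (grey) and 3 osteocyte (orange) vehicle libraries, with the group mean as a bar. All 3 osteocyte libraries lie above all 3 MSC libraries in each of the 16 genes, with the smallest fold change in Pparg (0.73 on the log2 scale) and the largest in Cfd (12.34), whose MSC counts were few.

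Genes of mitosis were lower in osteocytes. Of 32 kinetochore, spindle and mitosis genes 19 fell past both cutoffs (59.4%, against 6.08% of all genes tested) and none rose. The median log2 fold change was -1.09. All 32 had no overlap, as did 56.9% of all genes tested. Each was lower in osteocytes with an adjusted p under the threshold, as were 24.9% of all genes tested. Mki67, the proliferation antigen Ki-67, was at 272, 278 and 268 CPM in MSCs and 121, 124 and 138 CPM in osteocytes (log2 fold change -1.09 ± 0.15 (SE), adjusted p = 1.06e-05). Ccnb2, a cyclin of mitotic entry, was at 55.7, 51.1 and 47.3 CPM and 13.1, 15.3 and 18.3 CPM (-1.72 ± 0.14 (SE), adjusted p = 5.21e-08), the largest fall of the list. Both genes remained readily detected in the osteocyte libraries. Cdk1 (-0.69), the mitotic kinase, and Aurkb (-0.87), Aurora kinase B, did not reach the cutoff, and Ccnb1 (-1.01) passed it with all libraries but was between -0.90 and -0.99 without osteocyte library 1 or 2 or any one MSC library. Leaving out 1 library gave 16 to 20 falls in this list. DNA replication genes were lower too, mostly by less than the cutoff. Of 36 tested 2 fell past both cutoffs (5.56%, against 6.08% of all genes tested), 32 were lower by adjusted p alone, against 24.9%, 35 had a fold change below 0, and the median was -0.58. Rrm2, the small subunit of ribonucleotide reductase, was at 366, 323 and 358 CPM in MSCs and 87.6, 85.8 and 105 CPM in osteocytes (-1.91 ± 0.14 (SE), adjusted p = 7.32e-09), and thymidine kinase Tk1 fell as well (-1.51). Mcm2 (-0.42), a subunit of the replicative helicase, Pcna (-0.73), the sliding clamp, and Tyms (-0.45), thymidylate synthase, stayed under the cutoff.

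Many promoters of mitotic genes carry the cell cycle homology region (CHR), read here as TTTGAA on either strand, and the CCAAT box, read as CCAAT on either strand. Among RefSeq promoters of GRCm38.p6, taken from 250 bases before to 50 after the transcription start, the CHR letters were in 69.2% of 26 promoters of 25 mitosis genes that matched by symbol and in 17.9% of all promoters, and CCAAT was in 73.1% and 37.4%. The E2F site, read as TTTGGCG or the same letters with the GG replaced by a CC pair or a CG pair, on either strand, was in 42.9% of 35 promoters of replication genes and 5.58% of all. Among promoters of the genes tested the shares were 12.4% for the CHR letters, 38.0% for CCAAT and 8.92% for the E2F site. Motifs were searched apart from each other and may overlap, and a match is a description of letters. The 4 segments below belong to the 4 mitosis genes with the largest falls among those with the CHR letters in the window shown, and are printed to show how the 2 motifs lie in genes that fell; each runs 5′ to 3′ from 110 bases before to 15 bases after the start, with CHR and CCAAT letters in capitals.
Ccnb2 (chr9:70421540-70421664, minus strand): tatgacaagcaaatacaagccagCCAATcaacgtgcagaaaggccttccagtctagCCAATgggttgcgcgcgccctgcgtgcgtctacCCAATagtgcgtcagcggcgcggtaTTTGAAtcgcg
Cenpf (chr1:189688072-189688196, minus strand): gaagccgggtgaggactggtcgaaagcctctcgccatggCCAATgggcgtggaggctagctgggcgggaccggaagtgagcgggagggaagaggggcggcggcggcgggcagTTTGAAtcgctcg
Cdc20 (chr4:118437329-118437453, minus strand): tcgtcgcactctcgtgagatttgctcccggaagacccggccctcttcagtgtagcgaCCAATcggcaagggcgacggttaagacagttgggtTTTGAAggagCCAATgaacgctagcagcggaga
Ube2c (chr2:164769819-164769943, plus strand): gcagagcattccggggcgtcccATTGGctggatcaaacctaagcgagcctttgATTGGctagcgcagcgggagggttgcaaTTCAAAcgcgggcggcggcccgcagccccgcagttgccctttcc

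In the expression data of these 4 genes, Ccnb2 has been given above. Cenpf, a kinetochore protein of late G2 phase, was at 119.7, 118 and 121 CPM in MSCs and 41.2, 39.3 and 44.1 CPM in osteocytes (log2 fold change -1.53 ± 0.12 (SE), adjusted p = 2.98e-08). Cdc20, an activator of the anaphase-promoting complex, was at 52.6, 49.8 and 59.4 CPM and 19.2, 20.1 and 24.2 CPM (-1.35 ± 0.16 (SE), adjusted p = 2.17e-06). Ube2c, the ubiquitin-conjugating enzyme of that complex, was at 41.8, 42.6 and 45.9 CPM and 15.1, 19.8 and 25 CPM (-1.12 ± 0.18 (SE), adjusted p = 5.69e-05), and its fold change was -0.92 without osteocyte library 1, under the cutoff. The Ccnb2 segment holds 3 CCAAT boxes upstream of the CHR letters, and in all 4 segments the CHR letters lie nearer to the start than the most distant CCAAT box.

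Of 13 CDK inhibitors and G1 regulators 1 fell (7.69%, close to the 6.08% of all genes tested) and none rose. The member that fell was Cdkn1a (p21), the main p53-induced inhibitor, at 136, 126 and 124 CPM in MSCs and 60.5, 68.2 and 63.3 CPM in osteocytes (log2 fold change -1.01 ± 0.05 (SE), adjusted p = 1.45e-10), and it was between -0.933 and -0.997, under the cutoff, without osteocyte library 1 or 3 or any one MSC library. Cdkn1b (p27) overlapped between the groups (-0.12), and Cdkn1c and Cdkn2a had 0 counts in all 6 libraries. Among 18 p53 target genes 2 rose (11.1%, close to the 9.83% of all genes tested), which were Trp53inp1 (1.18), a stress-induced nuclear protein, and the death receptor Fas (1.03; 0.97 without MSC library 3). Mdm2 (-0.22), the p53 ubiquitin ligase, Ccng1 (-0.33), a cyclin induced by p53, and Bbc3 (0.32), the pro-apoptotic PUMA, stayed under the cutoff.

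The culture temperature differed between the groups, and cold-induced RNA-binding proteins were lower in the warmer osteocytes. Cirbp was at 89.4, 87.8 and 70.2 CPM in MSCs at 33 °C and 26, 35.1 and 34.7 CPM in osteocytes at 37 °C (log2 fold change -1.37 ± 0.14 (SE), adjusted p = 4.29e-07), and Rbm3 was at 584, 556 and 546 CPM and 227, 203 and 225 CPM (-1.37 ± 0.06 (SE), adjusted p = 1.87e-11). Of 17 temperature-responsive and heat shock genes 3 fell and 1 rose (17.6% and 5.88%, against 6.08% and 9.83% of all genes tested). The third fall was that of the inducible chaperone Hspa1b (-1.52), and the rise was that of Hsph1 (1.87), a nucleotide exchange factor of HSP70. Hspa1a, a near-identical copy of Hspa1b with which it may share reads, was at -0.9998, not past the cutoff, but was called at -1.08 without MSC library 3 and -1.05 without osteocyte library 3.

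Among the genes of oxygen sensing, Epas1 (HIF-2 alpha) stood apart. Epas1 was at 75.5, 73.4 and 73.4 CPM in MSCs and 737, 710.5 and 656 CPM in osteocytes (log2 fold change 3.24 ± 0.06 (SE), adjusted p = 4.93e-16). Hif1a was at 259, 266 and 267 CPM and 283, 250.3 and 253 CPM (-0.01 ± 0.05 (SE), adjusted p = 0.892), with overlapping groups. The prolyl hydroxylases Egln1 (0.404, adjusted p = 2.9e-06) and Egln2 (0.03) did not reach the cutoff. Egln3, which passed the test, had 0, 0 and 0 counts in MSCs and 33, 0 and 11 in osteocytes, so 1 osteocyte library also had none. Arnt2, a HIF partner, rose by 2.56. Of 29 HIF targets and glycolysis genes 3 rose and 1 fell, 10.3% and 3.45% against 9.83% and 6.08% of all genes tested (median -0.27). Pfkfb3, which makes the activator of phosphofructokinase, was at 12.7, 12.3 and 11.4 CPM in MSCs and 104, 111 and 114 CPM in osteocytes (3.17 ± 0.08 (SE), adjusted p = 2.92e-14), and hexokinase Hk2 and enolase Eno2 also rose (1.75 and 1.35). Pyruvate kinase Pkm fell, from 1162, 1121 and 1174 CPM to 428, 426 and 428 CPM (-1.43 ± 0.04 (SE), adjusted p = 6.31e-14). Slc2a1 (-0.62), the glucose transporter GLUT1, Vegfa (0.07), the angiogenic factor, Pgk1 (-0.83) and Ldha (0.101) stayed under the cutoff.

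Genes of iron handling gave 7 rises and 1 fall among 21 tested (33.3% and 4.76%, against 9.83% and 6.08% of all genes tested). Tfrc, the transferrin receptor that takes up iron, was at 20.6, 20.4 and 18 CPM in MSCs and 39.6, 50.3 and 49.97 CPM in osteocytes (log2 fold change 1.25 ± 0.09 (SE), adjusted p = 6.41e-09). Slc40a1, ferroportin, the exporter, was at 6.48, 6.45 and 7.23 CPM and 29.9, 32.9 and 35.1 CPM (2.28 ± 0.09 (SE), adjusted p = 8.22e-12). Both the importer and the exporter rose. Tfr2 (4.66), the second transferrin receptor, Hfe (1.92), its partner in iron sensing, and Cp (1.25), the ferroxidase ceruloplasmin, rose, with Trf among the largest rises of the data set. The remaining rise, of Steap4 (3.2), was not called without MSC library 1 or 2 or osteocyte library 1 or 2. The ferritin chains Fth1 (-0.41) and Ftl1 (-0.32) stayed under the cutoff, and Steap1, a metalloreductase, fell (-1.41).

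The WNT list had 12 rises and 5 falls among 32 tested genes. Among ligands, Wnt10b, which favours bone over fat, was at 47.7, 42.9 and 44.6 CPM in MSCs and 12.4, 12.4 and 14.1 CPM in osteocytes (log2 fold change -1.8 ± 0.08 (SE), adjusted p = 1.13e-11), and Wnt5a, a non-canonical ligand, fell (-1.26), while Wnt5b rose by 2.54. Of the receptors, the co-receptor Lrp5 was at 14.7, 15.9 and 17.3 CPM in MSCs and 125, 127 and 114 CPM in osteocytes (2.93 ± 0.06 (SE), adjusted p = 4.85e-15), and Fzd4 (3.18) and Fzd8 (1.97) rose with it. Of the R-spondin receptors Lgr5 rose (1.996) and Lgr4 fell (-1.64). R-spondins, which strengthen WNT signals, were divided too, with Rspo2 falling from 683, 664 and 668 CPM to 296, 277 and 269 CPM (-1.26 ± 0.06 (SE), adjusted p = 2.9e-11), Rspo3 rising by 1.6, and Rspo1 going from 3, 0 and 0 to 45, 23 and 65 counts, a ratio of 43.1-fold (95% counting interval 14.4 to 212). Among antagonists, Sfrp4 (2.47) and Frzb (1.67) rose, Wif1 (-1.38) fell, Sfrp1 (-0.86) stayed under the cutoff and Dkk2 had 0 counts in all 6 libraries. Axin2, a feedback target of beta-catenin, was at 1.07, 0.551 and 1.04 CPM in MSCs and 1.31, 0.917 and 1.09 CPM in osteocytes (0.32 ± 0.41 (SE), adjusted p = 0.549), with overlapping groups.

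Of 34 BMP and TGF-beta genes 11 rose and 2 fell (32.4% and 5.88%, against 9.83% and 6.08% of all genes tested). The falls were those of Tgfb2 and the antagonist Fstl3 (-1.03, and -0.93 without MSC library 2 and -0.98 without MSC library 3). The ligand Bmp2, an inducer of bone, was at 1.31, 1.24 and 0.833 CPM in MSCs and 3.67, 3.34 and 3.81 CPM in osteocytes (log2 fold change 1.68 ± 0.21 (SE), adjusted p = 6.06e-06), Bmp6 rose by 4.88, and Gdf10 went from 0, 0 and 0 to 89, 87 and 80 counts, at least 27.7-fold higher. Bmp4 (-0.23) and Tgfb1 (0.32) stayed under the cutoff, Tgfb3 rose (1.13) and Tgfb2 fell (-1.1). The secreted antagonists Nog (1.32), Grem1 (5.72), Chrdl1 (2.18) and Fst (2.2) rose in the same libraries as the ligands.

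In the IGF system 9 of 16 tested genes rose and none fell. Igf1, the growth factor, was at 133, 127 and 122 CPM in MSCs and 586, 582 and 584 CPM in osteocytes (log2 fold change 2.2 ± 0.06 (SE), adjusted p = 8.27e-14). Its binding protein Igfbp4 was at 23.4, 25.5 and 22.6 CPM and 502, 561 and 606 CPM (4.54 ± 0.08 (SE), adjusted p = 4.93e-16), and Igfbp5, which binds bone mineral, at 973, 993 and 937 CPM and 3172, 3422 and 3218 CPM (1.76 ± 0.05 (SE), adjusted p = 2.57e-13). Pappa, the protease that cuts Igfbp4, rose by 1.75. Igf2 went from 4, 3 and 3 to 173, 64 and 61 counts, and Igfbp3 was low and overlapping at 25, 11 and 9 and 0, 15 and 0 counts, and it was called lower without osteocyte library 2. Igf2 and the neighbouring noncoding H19 belong to the imprinted genes, of which 6 rose and 2 fell among 12 tested. H19 was at 1.36, 2.07 and 0.864 CPM in MSCs and 163, 104 and 141 CPM in osteocytes (6.58 ± 0.24 (SE), adjusted p = 1.58e-12). Plagl1 (3.37), a zinc finger regulator of that network, rose and Peg10 (-1.74), a retrotransposon-derived gene, fell, and Slc38a4, an amino acid transporter, fell most (-3.6) from a mean of 0.422 CPM in MSCs. Dlk1 and Meg3 were at or under 3 counts in every vehicle library, and Peg3 overlapped at 9, 12 and 1 and 8, 6 and 0 counts.

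Regulators of the osteoclast were read because the osteocyte is a source of RANKL. Tnfsf11, which encodes RANKL, went from 1, 0 and 0 counts in MSCs to 96, 47 and 102 in osteocytes, a ratio of 238-fold (95% counting interval 42.4 to 9453). Its decoy receptor Tnfrsf11b was at 2.45, 2.17 and 1.49 CPM and 25.8, 17 and 19.7 CPM (log2 fold change 3.36 ± 0.18 (SE), adjusted p = 2.16e-10). Ligand and decoy both rose, and per kilobase of exon the decoy stood at 7.4 CPM and the ligand at 0.589 CPM in osteocytes. Csf1 (-0.28) and Il34 (-0.89), the ligands of the CSF1 receptor, stayed under the cutoff, and Il6 overlapped (-0.14). Lif (4.93, and 5.88 without MSC library 1), an interleukin 6 family cytokine, and Sema3a (2.73), a semaphorin that restrains osteoclasts, were among the 5 rises of 17 tested genes, and none fell. Il11, another of the 5, had 15, 4 and 1 and 29, 40 and 20 counts and was not called when osteocyte library 1 or 2 or MSC library 2 or 3 was left out, and Ptger4 (-0.95), a prostaglandin E2 receptor, was called lower without osteocyte library 1 (-1.002).

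Hormone and nuclear receptors gave 5 rises and 1 fall among 18 tested genes (27.8% and 5.56%, against 9.83% and 6.08% of all genes tested). Pth1r, the parathyroid hormone receptor, was at 89.9, 88.4 and 89.1 CPM in MSCs and 81.6, 85.8 and 92.1 CPM in osteocytes (log2 fold change -0.04 ± 0.07 (SE), adjusted p = 0.66). Vdr, the vitamin D receptor, was at 113, 104 and 107 CPM and 54, 49 and 48.4 CPM (-1.1 ± 0.07 (SE), adjusted p = 8.65e-10), and Esr1, the estrogen receptor alpha, at 37.7, 37 and 39.99 CPM and 113, 111 and 111 CPM (1.55 ± 0.05 (SE), adjusted p = 5.79e-13). The groups overlapped for Pth1r, Vdr fell and Esr1 rose. Nr4a1 (2.54), an orphan receptor induced by hormones, and Ghr (1.24), the growth hormone receptor, rose, and Nr3c1 (0.29), the glucocorticoid receptor, stayed under the cutoff.

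Most cholesterol synthesis genes were lower in osteocytes. Of 23 tested 12 fell past both cutoffs and none rose, 22 were lower with an adjusted p under the threshold (24.9% of all genes tested were), and the median log2 fold change was -1.005. Mvd, which makes isopentenyl diphosphate, was at 30.7, 29.4 and 33.2 CPM in MSCs and 7.89, 9.99 and 10.6 CPM in osteocytes (-1.71 ± 0.11 (SE), adjusted p = 1.97e-09). Lss, lanosterol synthase, was at 83.5, 78.2 and 80.3 CPM and 25.8, 25.7 and 25.2 CPM (-1.66 ± 0.05 (SE), adjusted p = 2.57e-13). Fdps had the largest fall (-1.84) at a low level, 6.46 CPM in MSCs. The early enzyme Hmgcs1 (-0.59) stayed under the cutoff, and squalene epoxidase Sqle passed it (-1.07) but not without osteocyte library 2 (-0.99).

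Complement and acute-phase genes rose in 12 of 19 tested cases and fell in 1 (63.2% and 5.26%, against 9.83% and 6.08% of all genes tested). The median was 2.06. C3, the central complement component, was at 0.727, 1.24 and 0.613 CPM in MSCs and 134, 166 and 164 CPM in osteocytes (log2 fold change 7.49 ± 0.18 (SE), adjusted p = 8.85e-15). Serping1, the C1 inhibitor, went from 9, 11 and 7 counts to 3698, 2350 and 3483 (8.39 ± 0.18 (SE), adjusted p = 3.85e-15). C4b (2.69), a component with a near-identical neighbour, and Clu (4.6), clusterin, rose, and Cd59a (-1.21), a membrane inhibitor of the attack complex, fell. Lcn2, lipocalin 2, was under the count filter with 3, 1 and 0 counts in MSCs and 5, 7 and 6 in osteocytes. Among MHC class I presentation genes 5 of 16 rose and none fell. H2-K1 was at 513, 501 and 533 CPM and 1394, 1484 and 1504 CPM (1.5 ± 0.05 (SE), adjusted p = 1.08e-12), and B2m (0.495), the light chain, H2-D1 (0.54) and the peptide transporter Tap1 (-0.07) stayed under the cutoff. The class I genes are closely related copies, so their separate values are uncertain.

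Interferon-stimulated genes gave 8 rises and 3 falls among 33 tested (24.2% and 9.09%, against 9.83% and 6.08% of all genes tested), with a median of -0.26. Of the rises, Cmpk2 (1.015) was under the cutoff without MSC library 3 or osteocyte library 2. Oasl2 (1.05) was under it without MSC library 2, and Trim30a (1.04) without osteocyte library 1. The falls were those of Irf7, Dhx58 (-1.1; -0.93 without osteocyte library 1) and Ifit1, so that 1 was left without osteocyte library 1, whereas without osteocyte library 2 Mx2 and Usp18 were added and the falls were 5. Irf7, the interferon regulatory factor, was at 17.6, 18.1 and 16.8 CPM in MSCs and 6.82, 7.94 and 7.47 CPM in osteocytes (log2 fold change -1.24 ± 0.11 (SE), adjusted p = 1.1e-07). Ifit1, a binder of viral RNA caps, was at 26.3, 28.3 and 31.7 CPM and 13.5, 19.6 and 9.25 CPM (-1.03 ± 0.21 (SE), adjusted p = 0.000554), and gave -0.92 without MSC library 3, -0.96 without osteocyte library 1 and -0.76 without osteocyte library 3. Oas2, an antiviral synthetase, had the largest rise of the list (1.9, adjusted p = 0.00677). Its relative Oas1a was low at 0.436, 0.234 and 0.361 CPM in MSCs and 1.04, 0.953 and 1.58 CPM in osteocytes (1.79 ± 0.56 (SE), adjusted p = 0.0139), and the adjusted p was 0.0538 without MSC library 2 and 0.0502 without osteocyte library 3. Isg15 (-0.51), a ubiquitin-like modifier, stayed under the cutoff. The interferon-stimulated response element, read as GAAA, any 2 bases and GAAA on either strand, was in 60.7% of 28 promoters of 24 matched genes of this list and in 3.44% of all promoters. The element was found in promoters of members that rose and of a member that fell, and 3 segments are printed to show this, those of the 2 largest rises and the 1 fall among called members with the element in the window shown, from RefSeq on GRCm38.p6 over the same window as above, with the element in capitals.
Oas1a (chr5:120907511-120907635, minus strand): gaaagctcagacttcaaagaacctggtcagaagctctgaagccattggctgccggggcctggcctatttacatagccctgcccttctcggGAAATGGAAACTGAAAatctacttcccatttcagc
Gbp3 (chr3:142559934-142560058, plus strand): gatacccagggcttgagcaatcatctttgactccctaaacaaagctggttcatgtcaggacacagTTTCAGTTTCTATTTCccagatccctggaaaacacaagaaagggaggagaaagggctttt
Ifit1 (chr19:34640779-34640903, plus strand): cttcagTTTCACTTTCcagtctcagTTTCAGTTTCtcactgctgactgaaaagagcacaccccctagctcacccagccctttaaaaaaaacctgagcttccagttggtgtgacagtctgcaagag

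Gbp3, a guanylate-binding protein, was at 9.1, 11.1 and 10.04 CPM in MSCs and 21.2, 20.8 and 23.8 CPM in osteocytes (log2 fold change 1.12 ± 0.12 (SE), adjusted p = 1.37e-06). In its segment and in that of Oas1a 2 matches overlap and share 4 bases, on the opposite strand in Gbp3, and the segment of Ifit1 holds 2 separate matches.

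Contractile and SRF target genes gave 4 rises and 2 falls among 23 tested (17.4% and 8.7%, against 9.83% and 6.08% of all genes tested). The smaller fall, of the tropomyosin gene Tpm2 (-1.07), was -0.99 without osteocyte library 1, under the cutoff. Acta2, smooth muscle actin, was at 2024, 2107 and 1896 CPM in MSCs and 719, 808 and 853 CPM in osteocytes (log2 fold change -1.34 ± 0.12 (SE), adjusted p = 9.28e-08). Tagln, transgelin, was at 8.52, 7.7 and 5.75 CPM and 24.1, 22.5 and 33 CPM (1.86 ± 0.21 (SE), adjusted p = 1.98e-06). These contractile genes moved in opposite directions. Cnn1 (-1.37, adjusted p = 0.0596) and Myl9 (0.07) did not pass the test, and Ankrd1, a mechanically induced cofactor, went from 1, 0 and 0 to 11, 10 and 28 counts, a ratio of 47.7-fold (95% counting interval 8.17 to 1921).

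Few respiratory chain, lysosome and secretory genes were called, in a data set where 9.83% of all genes tested rose and 6.08% fell. None of 30 nuclear-encoded respiratory chain genes passed both cutoffs (median -0.28), while 16 were lower and 1 higher by adjusted p alone (24.9% and 26.0% of all genes tested), with Ndufa4 at -0.85, Sdha at 0.07, Uqcrc2 at 0.06 and Cox4i1 at -0.49. Of 27 lysosome and autophagy genes 1 rose, the collagen-degrading cathepsin Ctsk (1.09), while 18 were higher with an adjusted p under the threshold (26.0% of all genes tested were), among them Ctsd (0.58) and Lamp1 (0.48), and Sqstm1 was at -0.15. Of 24 secretory pathway genes 18 were higher and 2 lower by adjusted p alone. The stress gene Trib3 rose (1.11, adjusted p = 0.00979; 0.82 without MSC library 2 and 0.74 without osteocyte library 3), and the chaperone Hspa5 (0.95, but called at 1.03 without MSC library 3 and 1.07 without osteocyte library 2), the stress regulator Xbp1 (0.86), the coat protein gene Sec24d (0.18) and the collagen-secretion factor Creb3l1 (-0.82) stayed under the cutoff. Of 6 common reference genes none passed both cutoffs, but Gapdh was at 1506, 1444 and 1455 CPM in MSCs and 743, 748 and 786 CPM in osteocytes (-0.95 ± 0.04 (SE), adjusted p = 2.19e-11), just under the cutoff. Actb was at -0.59, Hprt at -0.33 and Tbp at 0.09, and only Tbp overlapped among these 3.

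**Figure D4:**
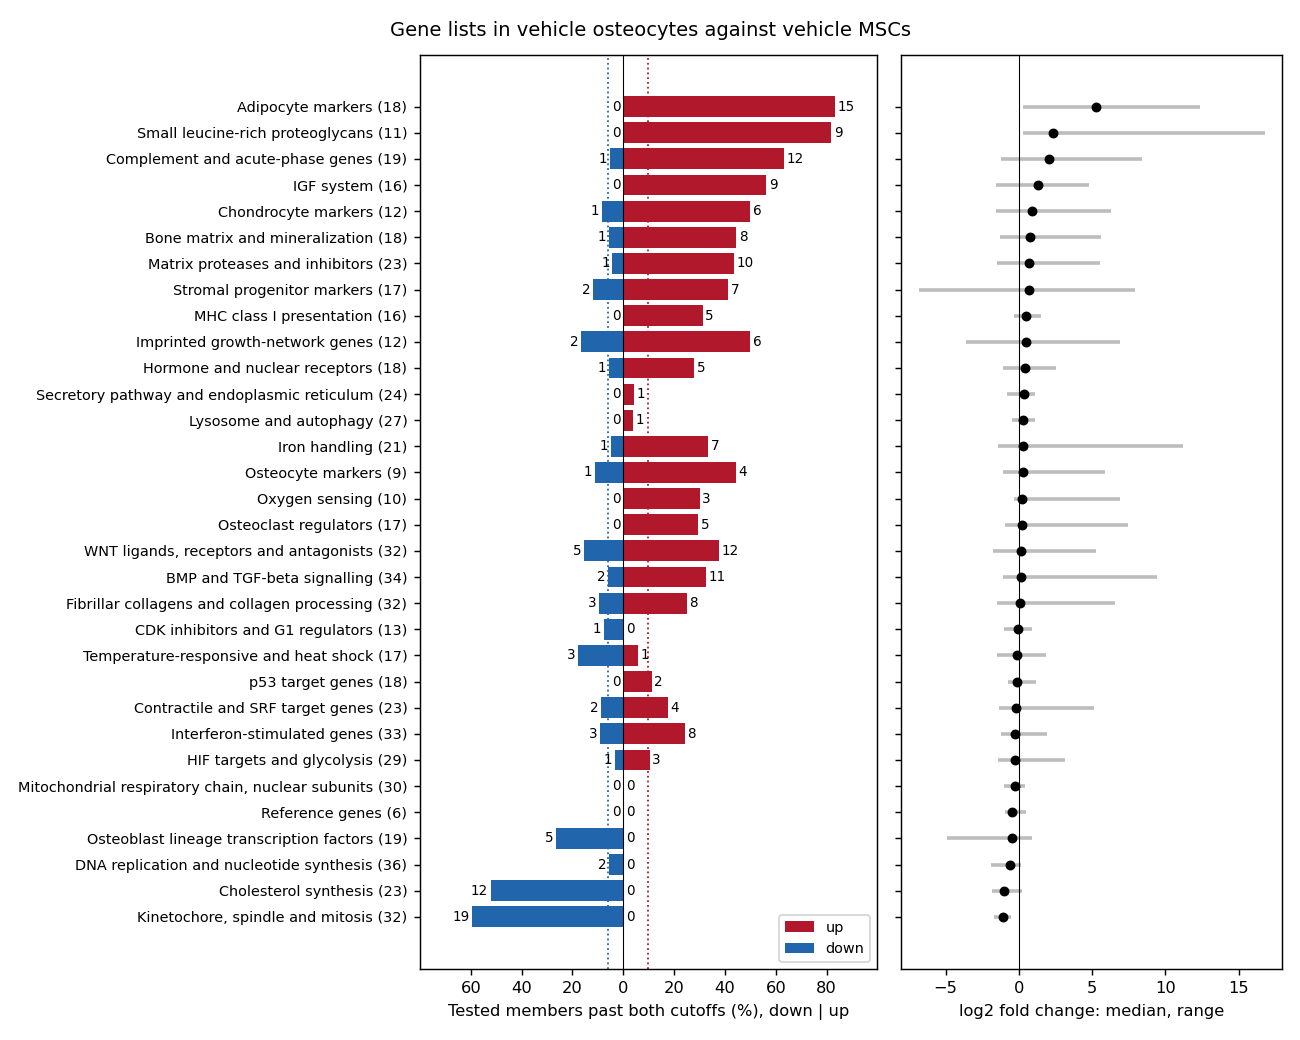
The left panel gives the percentage of tested members of each gene list that rose (red) or fell (blue) past both cutoffs, with the counts beside the bars, the number tested in parentheses and dotted lines at the percentage over all genes tested; the right panel gives the median log2 fold change as a dot and the lowest to highest as a line. Adipocyte markers (15 of 18) and small leucine-rich proteoglycans (9 of 11) hold the largest shares of rises, and mitosis (19 of 32) and cholesterol synthesis (12 of 23) the largest shares of falls.

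The differentiation contrast was also available under FG-4592, from 6 libraries that share none with the vehicle comparison. There, 12.6% of the genes tested rose and 5.64% fell past both cutoffs. Of the vehicle rises 1302 (80.4%) were also called rises under FG-4592, which is 62.6% of the FG-4592 rises, and of the vehicle falls 519 (51.7%) were called falls, 55.8% of those under FG-4592. The difference between the contrasts, tested as an interaction in the same edgeR fit, passed both cutoffs in 5.01% of all genes tested and in 442 of the 2623 genes called under vehicle. Among the vehicle rises 276 differed, 191 of them with a larger rise under FG-4592, and among the vehicle falls 166 differed, 149 of them with a smaller fall or a rise. None of the 32 mitosis genes and none of the 16 IGF genes tested passed this interaction, which is close to the 5.01% of all genes tested. Of the 23 cholesterol synthesis genes 10 passed it. Col11a1 (6.59 and 6.33), Dmp1 (3.23 and 3.23), Epas1 (3.24 and 3.36) and Dcn (6.88 and 7.56) had log2 fold changes of the same direction under vehicle and FG-4592. Phex rose under both, by 5.88 under vehicle and 3.06 under FG-4592, a difference of -2.81 (adjusted p = 0.000301). Fgf23, which did not pass the test under vehicle, had a log2 fold change of 4.9 under FG-4592 (difference 5.74, adjusted p = 0.00888), and the difference was 3.42 with an adjusted p of 0.402 without MSC vehicle library 3. Id4 was at -4.92 under vehicle, and -6.96 without osteocyte library 2 and -4.32 without osteocyte library 3, and at 0.72 under FG-4592 (adjusted p of the difference = 0.000335).

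**Figure D5:**
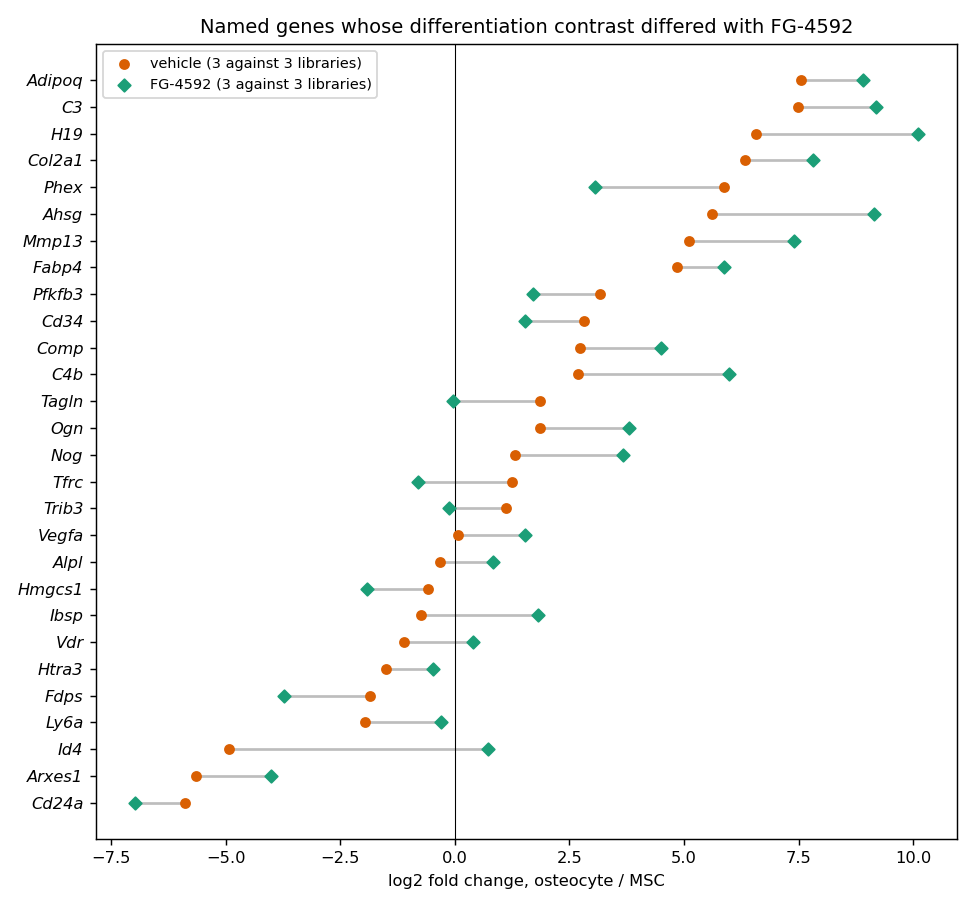
Log2 fold change of osteocytes over MSCs under vehicle (orange circles) and under FG-4592 (green diamonds) for 28 genes of the naming rule whose contrasts differed past both cutoffs of the interaction test. Id4 has the widest gap, from -4.92 under vehicle to 0.72 under FG-4592, and Id4, Tfrc, Ibsp, Vdr, Alpl, Tagln and Trib3 lie on opposite sides of 0 in the 2 conditions.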

How the data were processed

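mRNA-enriched libraries of MPC2 cells were sequenced, 12 in all and 3 per group. The authors deposited raw counts per gene, without normalization. The submitters' processing notes name STAR 2.7.2a, featureCounts from Subread 1.6.2, edgeR 3.24.3 and mm10. By the study's methods the counting assigned a read pair to every gene it overlapped without using strand, so that overlapping genes, which were 35.5% of those tested, can share reads.

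Groups were taken from the labels. All 12 libraries entered 1 edgeR 4.0.16 model (R 4.3.3), scaled by TMM and tested by quasi-likelihood. Genes had to exceed 10 counts in 3 or more libraries, and p-values were adjusted by Benjamini-Hochberg across the 16484 genes that did. Calls required an adjusted p under 0.05 and a log2 fold change beyond 1 in either direction. The contrasts were osteocyte against MSC under vehicle, the same under FG-4592, and their difference. CPM values are TMM-normalized. The procedure was tested on simulated data. Totals lay between 52829185 and 65075044 counts in the vehicle libraries. A floor of 3 counts and 95% exact conditional intervals cover counting error only. Where a symbol occurred more than once the row with most counts was used.

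The comparison and the gene lists were chosen with earlier results of these data known. Named genes were the 10 largest rises and 10 largest falls whose libraries did not overlap and whose higher group averaged 100 counts or more, the first 4 of each list, and the largest rise and fall of each list, and other members were picked after their values were seen. A few genes the rule or lists hold are not reported here. Promoters came from RefSeq on GRCm38.p6 and were matched by symbol. Alternatives were other scaling factors and filters, a likelihood ratio test, DESeq2 1.42.0, edgeR's test against a fold threshold, the vehicle libraries alone, a replicate block, genes without shared exonic bases, leaving out each vehicle library and, chosen after the data were seen, each FG-4592 library.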

Additional observations from a re-analysis of the deposited data

Results flagged for a closer look

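For 53 genes named in the text the differentiation contrast differed between FG-4592 and vehicle past both cutoffs of edgeR's interaction test. The values below are the log2 fold change (osteocyte over MSC) under FG-4592 minus that under vehicle, so that a positive value is a larger rise or a smaller fall under FG-4592. Groups of 3 libraries were not tested for outlying samples.

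Among bone matrix, mineral and osteocyte genes the difference was 2.57 for Ibsp, 1.16 for Alpl, 3.56 for Ahsg, 1.16 for Smpd3, -2.01 for Postn, -1.34 for Slc20a2, -2.81 for Phex, -1.2 for Fam20c and 1.12 for Tnfrsf11b. Ibsp and Alpl had log2 fold changes of -0.74 and -0.33 under vehicle and 1.82 and 0.84 under FG-4592. Fgf23 differed by 5.74 and Id4 by 5.64, both at low counts under vehicle, and Fgf23 passed the count filter only through FG-4592 libraries. Among matrix and cartilage genes it was 1.94 for Ogn, 2.3 for Mmp13, 1.03 for Htra3, 1.75 for Comp, 1.48 for Col2a1, -1.68 for Plod2, 1.19 for Thbs2, -1.57 for F13a1 and -6.72 for Eln. Eln had 0, 1 and 5 counts in MSCs under vehicle, and its log2 fold change there was 9.64, and 11.4 without MSC library 3. Among surface markers it was 1.64 for Ly6a, -1.09 for Cd24a, -1.27 for Cd34, 1.09 for Vcam1, 1.82 for Nt5e and 2.35 for Mcam.

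Among adipocyte genes the difference was 1.34 for Adipoq, 1.04 for Fabp4, 2.37 for Adrb3, -1.24 for Dgat2 and 1.62 for Arxes1. Among signalling genes it was 2.34 for Nog, 1.28 for Fst, 1.57 for Chrdl1, 1.11 for Fzd4, -1.73 for Sfrp4 and 1.5 for Vdr, and among imprinted genes 3.54 for H19 and 2.41 for Plagl1. Among oxygen, glucose and iron genes it was 1.47 for Vegfa, -2.27 for Arnt2, -1.67 for Hk2, -1.16 for Eno2, -1.47 for Pfkfb3 and -2.06 for Tfrc. Tfrc rose under vehicle (1.25) and was at -0.81 under FG-4592. Among complement genes it was 1.7 for C3, 3.3 for C4b and 1.64 for Clu, among cholesterol genes -1.88 for Fdps and -1.32 for Hmgcs1, and for the remaining 3 genes -1.89 for Tagln, -1.24 for Trib3 and 1.14 for Lyz2.

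Of these 53 genes 40 were called without each of the 12 libraries in turn, 13 lost the call without at least 1, and none changed sign. The difference of Eln was -1.29 (adjusted p = 0.805, edgeR's interaction test) without MSC FG-4592 library 2, and that of Fgf23 was 3.42 (adjusted p = 0.402) without MSC vehicle library 3 and 9.53 without osteocyte vehicle library 1. Adrb3 had an adjusted p of 0.0527 to 0.312 in 9 of the 12 fits, all but those without MSC FG-4592 library 2, MSC vehicle library 3 or osteocyte vehicle library 3. Chrdl1 had one of 0.0571 to 0.168 in 9 fits, all but those without MSC FG-4592 library 1, MSC vehicle library 2 or osteocyte vehicle library 3. Trib3 had one of 0.0558 to 0.113 in 7 fits, those without any 1 MSC FG-4592 library, osteocyte FG-4592 library 1 or 3, MSC vehicle library 2 or osteocyte vehicle library 3. Ahsg had one of 0.0524 to 0.082 without any 1 MSC FG-4592 library or MSC vehicle library 1 or 3. Arxes1 had one of 0.0507 to 0.0858 without osteocyte FG-4592 library 1 or 2, MSC vehicle library 3 or osteocyte vehicle library 1 or 2. Cd24a was at -0.84 and -0.83 without osteocyte FG-4592 library 1 and 2 and at -1.77 without library 3. Fabp4, Fzd4, Htra3, Smpd3 and Tnfrsf11b lay close to the cutoff of 1 and gave 0.86 to 0.98 in the fits where they lost the call. Without MSC FG-4592 library 1 the difference of Phex was -2.11, without MSC FG-4592 library 2 that of Plagl1 was 3.33, and without osteocyte vehicle library 2 that of Id4 was 7.66, all still called.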

How the results depend on the processing

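The direction of every call among the 1620 rises and 1003 falls was kept in each alternative in which the gene was also called. Counts moved by more than 1.5 times in a few settings. With edgeR's test against a threshold of a log2 fold change of 1 (glmTreat), 1050 genes rose, 401 fell and 82 of the called genes differed between FG-4592 and vehicle, and Ctsk, Mmp2, Mki67, Vdr, Irf7 and Nog were among the genes no longer called. The genes that share no exonic base with another gene gave 1139 rises and 634 falls, fewer because fewer genes were tested. RLE, upper-quartile or no scaling factors gave 1570 to 1628 rises and 993 to 1075 falls, DESeq2 gave 1666 and 1018, the likelihood ratio test 1744 and 1118, no filter 1736 and 1120, and the 6 vehicle libraries alone 1574 and 916, where the difference from FG-4592 could not be computed. Leaving out 1 vehicle library gave 1563 to 1647 rises, 857 to 1005 falls and 381 to 463 genes whose contrast differed with FG-4592, against 442. Leaving out 1 FG-4592 library, an alternative chosen after the data were seen, gave 391 to 416 such genes. The replicate numbers did not pair the samples, since the deviations of osteocyte and MSC libraries of the same number correlated at 0.0129, 0.0543 and -0.0477 and not every library correlated best with its own number, and with the replicate block 1566 genes rose, 967 fell and 407 differed. At this depth genes with a few counts in 1 group, such as Cfd and Thrsp, have fold changes that rest on single libraries.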

Other observations

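The following groups were put together after their values had been seen, so their counts are descriptions. Guanylate-binding proteins, interferon-induced GTPases, rose in 7 of 9 tested cases with a median log2 fold change of 3.68, against -0.01 over all genes tested. Gbp6 was at 0.906 ± 0.141 CPM (SD, n = 3) in MSCs and 11.6 ± 1.71 CPM in osteocytes (3.68), and Gbp5 at 0.799 ± 0.149 and 6.25 ± 0.0525 CPM (2.96), while Gbp2 was at 20.7 ± 0.369 and 20.6 ± 2.29 CPM and overlapped. These genes are related copies in clusters, and reads may be divided among them. Of 79 cytosolic ribosomal protein genes 67 were lower in osteocytes with an adjusted p under 0.05 in edgeR's quasi-likelihood test, as were 24.9% of all genes tested, 1 of them past both cutoffs (Rpl12), and the median was -0.68. Several lay close to the cutoff, and the number past both was 0 without osteocyte library 1, 6 without osteocyte library 2, 8 without osteocyte library 3, 5 without MSC library 3 and 3 with upper-quartile factors or library size alone. Of 11 elastic fibre genes 4 rose and 1 fell (36.4% and 9.09%, against 9.83% and 6.08% of all genes tested). With RLE factors 5 rose. Eln, elastin, was at 0.0318 ± 0.0414 CPM in MSCs and 28.4 ± 5.26 CPM in osteocytes, and Fbln5, which helps assemble elastin, at 86.6 ± 2.24 and 987 ± 19.2 CPM (3.51), while Fbn1, fibrillin 1, overlapped at 1040.4 ± 77.2 and 951 ± 32.8 CPM.

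Among called genes with a large gain in CPM, the collagen gene Col8a1 was at 573 ± 34.8 CPM in MSCs and 5835 ± 153 CPM in osteocytes (log2 fold change 3.35 ± 0.09 (SE)). Tnc, tenascin C, a matrix glycoprotein of remodelling tissue, was at 122 ± 2.63 and 2084 ± 144 CPM (4.09 ± 0.09 (SE)), and F13a1, a transglutaminase that crosslinks matrix, at 3.18 ± 0.22 and 1908 ± 254 CPM (9.23 ± 0.15 (SE)). Dio2, which activates thyroid hormone, was at 6.53 ± 0.591 and 963 ± 84.3 CPM (7.21 ± 0.09 (SE)). Among losses, the intermediate filament gene Vim was at 4491 ± 54 CPM in MSCs and 1882 ± 79.98 CPM in osteocytes (-1.25 ± 0.05 (SE)), the matricellular Thbs2 at 2481 ± 89.5 and 969 ± 46.2 CPM (-1.36 ± 0.07 (SE)), and versican, Vcan, a large proteoglycan, at 621 ± 13 and 152 ± 7.54 CPM (-2.03 ± 0.098 (SE)). Further genes of the fat cell were read as well. Gpd1, which supplies glycerol phosphate, was at 0.186 ± 0.0339 and 214 ± 38.7 CPM (10.16 ± 0.23 (SE)), and Aqp7, a glycerol channel, at 3.34 ± 0.0732 and 63.1 ± 7.9 CPM (4.24 ± 0.13 (SE)), whereas the fatty acid synthesis genes Fasn (0.81) and Acaca (0.26) stayed under the cutoff, and Ucp1, the brown fat uncoupler, had 0 counts in all 6 libraries.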
